A study of Mus musculus with 24 samples.

Results

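The comparison set sciatic nerves of S63del/Chop null mice against those of wild-type (WT) mice at postnatal day 5 (P5), shortly after myelination starts. It rests on 4 of the 24 arrays of the study, 2 of each genotype, picked by the genotype and age in their titles, and covers all 12393 genes that could be named. The study measured expression in sciatic nerve of 4 genotypes, S63del/Chop null, S63del, Chop null and WT, at P5, P28 and 4 months, with 2 arrays a group labelled as biological replicates. S63del mice carry a mutant peripheral myelin protein and model the demyelinating neuropathy Charcot-Marie-Tooth 1B. Chop null mice lack Ddit3, the gene of the transcription factor CHOP, and S63del/Chop null mice combine both. Per the study's design text the double mutants are rescued in movement and nerve structure at 4 months, and the comparison asks what sets their nerves apart from WT while myelin is first being laid down.

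The nerves were taken without their perineurial sheath, and total RNA was labelled and hybridised to Affymetrix arrays. The sources used here give neither the promoter behind the mutant protein, nor the sex of the mice, nor whether nerves were pooled, and the p-values below measure only the spread between arrays labelled as replicates. Values are log2 expression per gene. The medians of the 4 genotypes' P5 arrays lay between 6.98 and 7.01, and the number of arrays, not depth, limits the precision of each mean. Replicates of a P5 group correlated at 0.9954 (WT) or more over genes. The Chop null pair at P28 stood apart from the other groups, with a correlation of 0.9696 and a residual SD of 0.394, against 0.15 in S63del/Chop null and 0.16 in WT nerves at P5, and it enters the spread that the fit shares over all 24 arrays. Differences are log2 S63del/Chop null minus WT with the SE of the limma fit, each from 2 arrays a genotype, and changed genes are those whose p, adjusted over all genes, was below 0.05. A nerve is a mixture of cells, so fewer cells of a type and less RNA per cell cannot be told apart.

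As background, Schwann cells wrap axons and make large amounts of membrane protein and lipid when they begin to myelinate. Protein that misfolds in the endoplasmic reticulum (ER) sets off the unfolded protein response: chaperones and degradation genes are switched on through ATF6 and XBP1, and the kinase PERK slows translation and raises the transcription factor ATF4, which acts on amino acid genes and on Ddit3. A separate response, driven by HSF1, raises heat shock proteins of the cytosol. Sterol synthesis is under the control of SREBP factors, and myelin is rich in cholesterol.

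Promoters of 9 genes were picked as examples and searched, like all others, for the letters of elements known to bind these factors. The 6 that hold a match are shown, and the windows of Sdf2l1 (ER stress element), Lss and Idi1 (sterol element) held none. The windows lie mostly upstream of the start in the RefSeq annotation of GRCm38.p6 and run on the gene's own strand, with each match in capitals. Of the genes measured, 9887 matched a window.

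Hspa1a, heat shock element GAANNTTC, chr17:34972107-34972406, minus strand, match at position -104 from the start: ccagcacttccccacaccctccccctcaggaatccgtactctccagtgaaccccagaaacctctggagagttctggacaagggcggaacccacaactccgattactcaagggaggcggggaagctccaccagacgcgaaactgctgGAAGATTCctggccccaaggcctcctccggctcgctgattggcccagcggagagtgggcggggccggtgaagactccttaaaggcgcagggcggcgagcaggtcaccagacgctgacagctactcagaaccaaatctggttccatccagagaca

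Hspb1, heat shock element, chr5:135887669-135887968, plus strand, matches at -117 and -97: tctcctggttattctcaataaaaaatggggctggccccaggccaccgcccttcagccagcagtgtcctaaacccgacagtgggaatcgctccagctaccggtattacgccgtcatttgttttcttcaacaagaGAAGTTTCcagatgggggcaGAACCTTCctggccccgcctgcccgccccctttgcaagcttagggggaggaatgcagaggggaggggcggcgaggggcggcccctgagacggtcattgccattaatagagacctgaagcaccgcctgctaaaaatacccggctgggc

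Creld2, ER stress element (CCAAT, then NNNNNNNNN, then CCACG), chr15:88819396-88819695, plus strand, match on the opposite strand at -126: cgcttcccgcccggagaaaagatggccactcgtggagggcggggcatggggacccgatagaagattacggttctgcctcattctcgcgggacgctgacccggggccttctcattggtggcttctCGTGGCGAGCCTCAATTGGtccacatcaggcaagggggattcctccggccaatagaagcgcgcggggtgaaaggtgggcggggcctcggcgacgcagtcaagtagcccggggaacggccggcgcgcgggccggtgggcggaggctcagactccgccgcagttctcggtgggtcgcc

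Asns, amino acid response element TGATGNAA, chr6:7693160-7693459, minus strand, match at -23: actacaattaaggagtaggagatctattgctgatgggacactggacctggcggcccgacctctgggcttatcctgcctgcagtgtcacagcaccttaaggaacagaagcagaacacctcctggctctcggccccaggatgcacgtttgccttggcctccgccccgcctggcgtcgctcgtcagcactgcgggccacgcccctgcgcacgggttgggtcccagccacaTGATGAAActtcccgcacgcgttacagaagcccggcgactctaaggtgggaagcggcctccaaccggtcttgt

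Chac1, amino acid response element, chr2:119350992-119351291, plus strand, match on the opposite strand at -193: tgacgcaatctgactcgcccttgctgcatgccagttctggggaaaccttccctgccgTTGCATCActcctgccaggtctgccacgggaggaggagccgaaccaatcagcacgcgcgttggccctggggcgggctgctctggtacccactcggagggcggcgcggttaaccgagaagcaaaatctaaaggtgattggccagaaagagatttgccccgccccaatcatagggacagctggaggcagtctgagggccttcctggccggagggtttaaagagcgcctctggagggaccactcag

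Hmgcs1, sterol element TCACNCCAC, chr13:119690101-119690400, plus strand, match at -137: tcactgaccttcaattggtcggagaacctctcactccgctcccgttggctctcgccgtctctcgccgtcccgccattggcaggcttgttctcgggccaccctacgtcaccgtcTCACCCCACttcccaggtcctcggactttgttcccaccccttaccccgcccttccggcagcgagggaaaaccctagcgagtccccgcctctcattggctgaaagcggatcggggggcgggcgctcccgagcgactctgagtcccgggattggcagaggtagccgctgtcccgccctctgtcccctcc

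Each motif was searched on both strands, and GAANNTTC reads the same on both. Shares of promoters count windows, while counts and shares of genes count a gene if any of its windows holds a match. The heat shock letters stood in 12 of 19 heat shock genes with a window, against 7.86% of all 32851 promoters and 7.56% of measured genes with a window. The ER stress letters stood in 8 of 25 ER chaperone genes, against 0.12% of all promoters, and their last letters CCACG alone, which overlap every such match, in 23 of 25 against 32.77%. Among measured genes with a window the shares were 0.18% for the ER stress letters and 47.57% for CCACG. The amino acid letters stood in 9 of 30 genes of the ATF4 list, against 3.97% of all promoters and 3.13% of measured genes with a window. The sterol letters stood in 1 of 15 genes of cholesterol synthesis, against 1.24% of all promoters and 1.5% of measured genes with a window. The antioxidant letters TGACNNNGC stood in 6 of 16 genes of the NRF2 list, against 12.39% of all promoters and 16.32% of measured genes with a window. A match is a description of the letters in this window and shows no binding, and the lists were drawn up with the results of these arrays known.

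Ddit3, the gene removed in Chop null mice, was read first, since it bears on the genotype labels. At P5 its log2 level was 6.93 and 6.82 in S63del/Chop null, 9.59 and 9.52 in S63del, 6.85 and 6.60 in Chop null and 7.66 and 7.61 in WT nerves. Both S63del/Chop null arrays lay below both WT arrays, and S63del arrays lay above all others. The difference of S63del/Chop null from WT was -0.76 ± 0.19 (adjusted p = 0.0536), and which part of the gene the probe set reads was not checked.

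In S63del/Chop null nerves 257 of 12393 genes (2.07%) changed at P5, 112 of them higher (0.904%) and 145 lower (1.17%). More than 2-fold changes were seen in 85, 41 higher and 44 lower. The 2 S63del/Chop null and the 2 WT arrays did not overlap for any of the 257. These genes were called on the same arrays, so that the gap adds no support, and its share over all genes was not counted. The sizes of the called changes lay between 0.39 and 5.22 with a median of 0.82, while the median difference of all genes was -0.01. An unadjusted p under 0.05 was reached by 1205 genes. Without Chop null P28 array 2 and WT 4-month array 1 the count was 509, and with the 8 P5 arrays alone it was 742. The count was lower without any 1 of the 4 compared arrays. In none of these fits could the direction of the 257 change. Their arrays did not overlap, and leaving out other arrays does not alter their P5 means.

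Heat shock proteins of the cytosol stood at the top. Hspa1a, an inducible HSP70 chaperone, read 11.27 and 11.05 in S63del/Chop null and 5.96 and 5.93 in WT nerves. Its close copy Hspa1b read 12.02 and 11.89 in S63del/Chop null and 8.43 and 8.39 in WT nerves, and the small heat shock protein Hspb1 12.88 and 12.50 in S63del/Chop null and 9.12 and 9.28 in WT nerves. The mutant arrays lay far above the WT arrays for each of these genes. The rises were 5.22 ± 0.30 for Hspa1a (37.2-fold, adjusted p = 1.22e-08), 3.54 ± 0.29 for Hspa1b and 3.49 ± 0.16 for Hspb1 (11.2-fold). Hspa1a and Hspa1b are near-identical, so that probe sets may read both and the split between them is uncertain.

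Of 22 heat shock genes measured 10 rose, none fell and 21 lay above 0, with a median of 0.43 against -0.01 over all genes. Of all genes 0.904% were called higher at P5 and 1.17% lower, and each P5 list below is to be read beside these shares. Hspb8, a small heat shock protein that works with the autophagy cochaperone BAG3, rose by 1.69 ± 0.29. It read 8.09 and 7.81 in S63del/Chop null and 6.03 and 6.51 in WT nerves, with the mean of its probe sets its rise was 1.06 (adjusted p = 0.00111), and its adjusted p was 0.0542 without S63del/Chop null replicate 1 and 0.0721 without WT replicate 1. The other called members were the HSP90, HSP110, HSP40, HSP60 and HSP10 genes Hsp90aa1, Hsph1, Dnajb1, Hspd1 and Hspe1 and the cochaperone Stip1. They rose by between 0.58 (Stip1) and 1.15 (Hsph1). Hspd1 and Hspe1 are chaperones of mitochondria, although the list is named for the cytosol.

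**Figure D1:**
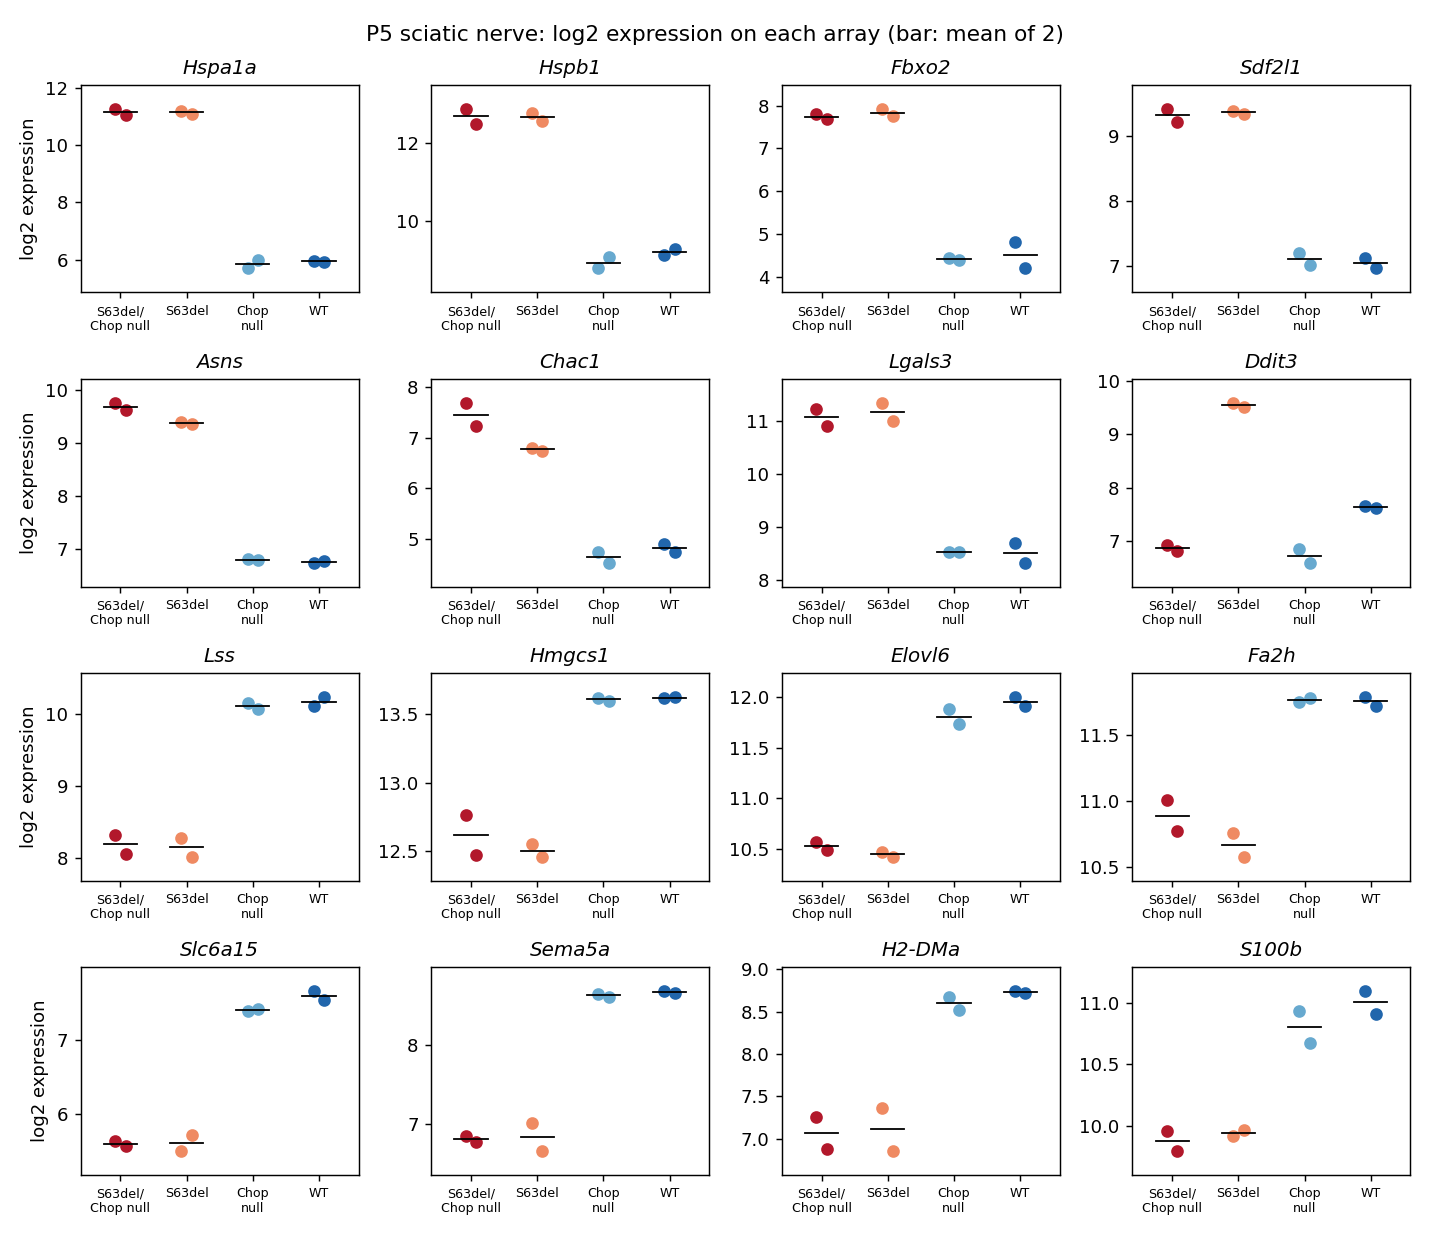
Log2 expression of 16 genes on each P5 array (points) with the mean of the 2 arrays of a genotype (bars), for S63del/Chop null, S63del, Chop null and WT. For Hspa1a the S63del/Chop null arrays read 11.27 and 11.05 and the WT arrays 5.96 and 5.93. In the panels other than that of Ddit3 both S63del genotypes lie on the same side of Chop null and WT.

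Some genes of the unfolded protein response also rose. Sdf2l1, an ER chaperone cofactor, read 9.41 and 9.21 in S63del/Chop null and 7.13 and 6.97 in WT nerves, a rise of 2.27 ± 0.20. Creld2, an ER-resident protein induced by ER stress, read 10.82 and 10.86 in S63del/Chop null and 9.44 and 9.12 in WT nerves, a rise of 1.56 ± 0.22. In both genes the genotypes were apart, with S63del/Chop null above WT. Of 28 ER chaperone and folding genes 7 rose, against 0.904% of all genes, none fell and 25 lay above 0, with a median of 0.41. Pdia4, a protein disulfide isomerase, rose by 1.09 ± 0.12, but by 0.58 with the mean of its probe sets (adjusted p = 0.0227). Dnajb11, a cochaperone of BiP, rose by 0.72 ± 0.13, and by 0.63 without WT replicate 2 (adjusted p = 0.0977). The major ER chaperone BiP, gene Hspa5, read 13.11 and 13.21 in S63del/Chop null and 12.54 and 12.43 in WT nerves. Its arrays did not overlap, and the difference of 0.67 ± 0.21 missed the threshold on this, its brighter probe set (adjusted p = 0.161). The other probe set of Hspa5 was at 0.86 ± 0.20 and passed when all probe sets were tested in limma (adjusted p = 0.0419), so that the call of BiP depends on the probe set.

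Degradation genes gave some of the largest rises. Fbxo2, which marks glycoproteins for the proteasome, read 7.80 and 7.68 in S63del/Chop null and 4.81 and 4.19 in WT nerves. Derl3, a derlin of the channel that exports misfolded proteins from the ER, read 8.90 and 8.91 in S63del/Chop null and 6.25 and 6.40 in WT nerves. Both genes were low in WT and clearly apart in S63del/Chop null nerves, with rises of 3.24 ± 0.18 and 2.58 ± 0.24. In the list for degradation and translocation at the ER 4 of 30 genes rose, against 0.904% of all genes, and none fell. In this list 27 lay above 0, with a median of 0.19. The other called members were Herpud1, a membrane protein of the degradation complex, at 0.88 ± 0.12, and the ubiquitin ligase Syvn1 at 0.64 ± 0.15. Syvn1 was 0.46 higher without S63del/Chop null replicate 1 (adjusted p = 0.431), 0.70 without WT replicate 1 (adjusted p = 0.141) and 0.58 without WT replicate 2 (adjusted p = 0.285). Of other ER stress genes, the transcription factor Xbp1 differed by -0.11 ± 0.13 (adjusted p = 0.97) and Ero1a, the ER oxidase, by -0.04 ± 0.10 (adjusted p = 0.998).

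In the list of ATF4 amino acid and stress targets, which also holds Atf4 itself, 5 of 35 genes rose, against 0.904% of all genes. None fell and 27 lay above 0, with a median of 0.27. Asns, asparagine synthetase, read 9.76 and 9.63 in S63del/Chop null and 6.73 and 6.76 in WT nerves, a rise of 2.95 ± 0.15 (7.73-fold, adjusted p = 3.15e-09). Chac1, which breaks down glutathione, read 7.68 and 7.22 in S63del/Chop null and 4.90 and 4.75 in WT nerves, a rise of 2.62 ± 0.17. Slc7a3, a transporter of arginine and lysine, read 6.24 and 6.28 in S63del/Chop null and 4.39 and 4.22 in WT nerves, a rise of 1.95 ± 0.17. Replicates of these genes stayed close together against the distance between the genotypes. The stress factor Atf3 rose by 1.55 ± 0.20. The fifth was Slc3a2, the heavy chain of amino acid transporters, at 0.65 ± 0.14, which is outside the rule for named genes. Atf4 itself was 0.18 ± 0.12 higher (adjusted p = 0.747). None of 18 aminoacyl-tRNA synthetase genes passed in limma, although 17 lay above 0 with a median of 0.29. An unadjusted p under 0.05 was seen in 7 of the 18, against 1205 of all 12393 genes. The phosphatase subunit Ppp1r15a, known as a CHOP target, differed by 0.07 ± 0.18 (adjusted p = 0.998).

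Of 15 genes linked to CHOP 4 rose, against 0.904% of all genes, none fell and 11 lay above 0, with a median of 0.54. Of the 4 Chac1 and Atf3 also stand in the ATF4 list and Sqstm1 in the NRF2 list. Sqstm1, an autophagy receptor, read 11.58 and 11.36 in S63del/Chop null and 10.63 and 10.67 in WT nerves, a rise of 0.82 ± 0.17. Gadd45b, a stress and DNA repair gene, rose by 0.86 ± 0.20, and by 0.57 with the mean of its probe sets (adjusted p = 0.013). Both lost the call without single arrays. Without S63del/Chop null replicate 1 Sqstm1 was 0.71 higher (adjusted p = 0.183) and Gadd45b 0.63 (adjusted p = 0.39). Without WT replicate 1 or 2 Sqstm1 was 0.80 or 0.84 higher (adjusted p = 0.121 or 0.0999) and Gadd45b 1.01 or 0.71 (adjusted p = 0.0671 or 0.327).

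Most genes of cholesterol synthesis fell. Lss, which closes the sterol rings, read 8.32 and 8.05 in S63del/Chop null and 10.10 and 10.23 in WT nerves. Tm7sf2, a sterol reductase, read 8.36 and 8.18 in S63del/Chop null and 10.27 and 10.15 in WT nerves, and Hmgcs1, an early enzyme of the pathway, 12.77 and 12.47 in S63del/Chop null and 13.62 and 13.63 in WT nerves. In each of them both S63del/Chop null arrays lay below both WT arrays by more than the distance between replicates. The differences were -1.98 ± 0.28 for Lss, -1.94 ± 0.20 for Tm7sf2 and -1.005 ± 0.12 for Hmgcs1. Nsdhl and Dhcr7, later enzymes, were at -1.26 ± 0.17 and -1.07 ± 0.13. Of 19 genes measured 16 fell, against 1.17% of all genes, and none rose. All 19 lay below 0, between -1.98 and -0.38 with a median of -1.07.

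Genes of fatty acid and myelin lipid synthesis fell in part. Elovl6 and Elovl7, which lengthen fatty acids, and Scd1, which desaturates them, fell by 1.42 ± 0.17, 1.05 ± 0.15 and 1.42 ± 0.20. Acss2, which makes acetyl-CoA, read 7.52 and 7.49 in S63del/Chop null and 9.26 and 9.15 in WT nerves and fell by 1.70 ± 0.34. The arrays of Acss2 were tight, yet its SE, taken over all 24 arrays, was wide, and without any 1 of the 4 arrays its adjusted p lay between 0.0788 and 0.104. Of 31 fatty acid and sphingolipid genes 8 fell, against 1.17% of all genes, none rose and 21 lay below 0, with a median of -0.39.

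Of 17 myelin genes 6 fell, against 1.17% of all genes, none rose and 16 lay below 0, with a median of -0.50. Ugt8a, which makes galactocerebroside, read 12.19 and 11.97 in S63del/Chop null and 12.96 and 13.01 in WT nerves, a difference of -0.90 ± 0.13. Fa2h, which hydroxylates myelin lipids, read 11.01 and 10.77 in S63del/Chop null and 11.78 and 11.72 in WT nerves, a difference of -0.87 ± 0.15, and was -0.75 without S63del/Chop null replicate 2 (adjusted p = 0.062). Both also stand in the lipid list. Ncmap, a protein of noncompact myelin, fell by 0.92 ± 0.13. Mbp, myelin basic protein, read 13.76 and 13.63 in S63del/Chop null and 14.14 and 14.17 in WT nerves, a difference of -0.46 ± 0.09. Mbp has several probe sets, and the brightest, used here, was the only one to pass when all were tested in limma (adjusted p = 0.0151). The next brightest, nearly as bright, differed by -0.16 (adjusted p = 0.775) and the dimmest by 0.02. The call of Mbp was lost without S63del/Chop null replicate 2 (-0.39, adjusted p = 0.156), WT replicate 1 (-0.47, adjusted p = 0.0795) or WT replicate 2 (-0.44, adjusted p = 0.113), with the 4 compared arrays alone (-0.46, adjusted p = 0.059), and with the mean of its probe sets (-0.39, adjusted p = 0.259).

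Pmp22 differed by -0.23 ± 0.09 (adjusted p = 0.285). Egr2, the transcription factor that drives myelin genes, read 11.54 and 11.57 in S63del/Chop null and 11.56 and 11.55 in WT nerves (adjusted p = 1), and its arrays overlapped. The mutated myelin gene itself was not analysed here. S100b, a calcium-binding protein of Schwann cells that is in no list and was singled out after its values were seen, read 9.96 and 9.80 in S63del/Chop null and 11.10 and 10.91 in WT nerves, a difference of -1.13 ± 0.12.

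**Figure D2:**
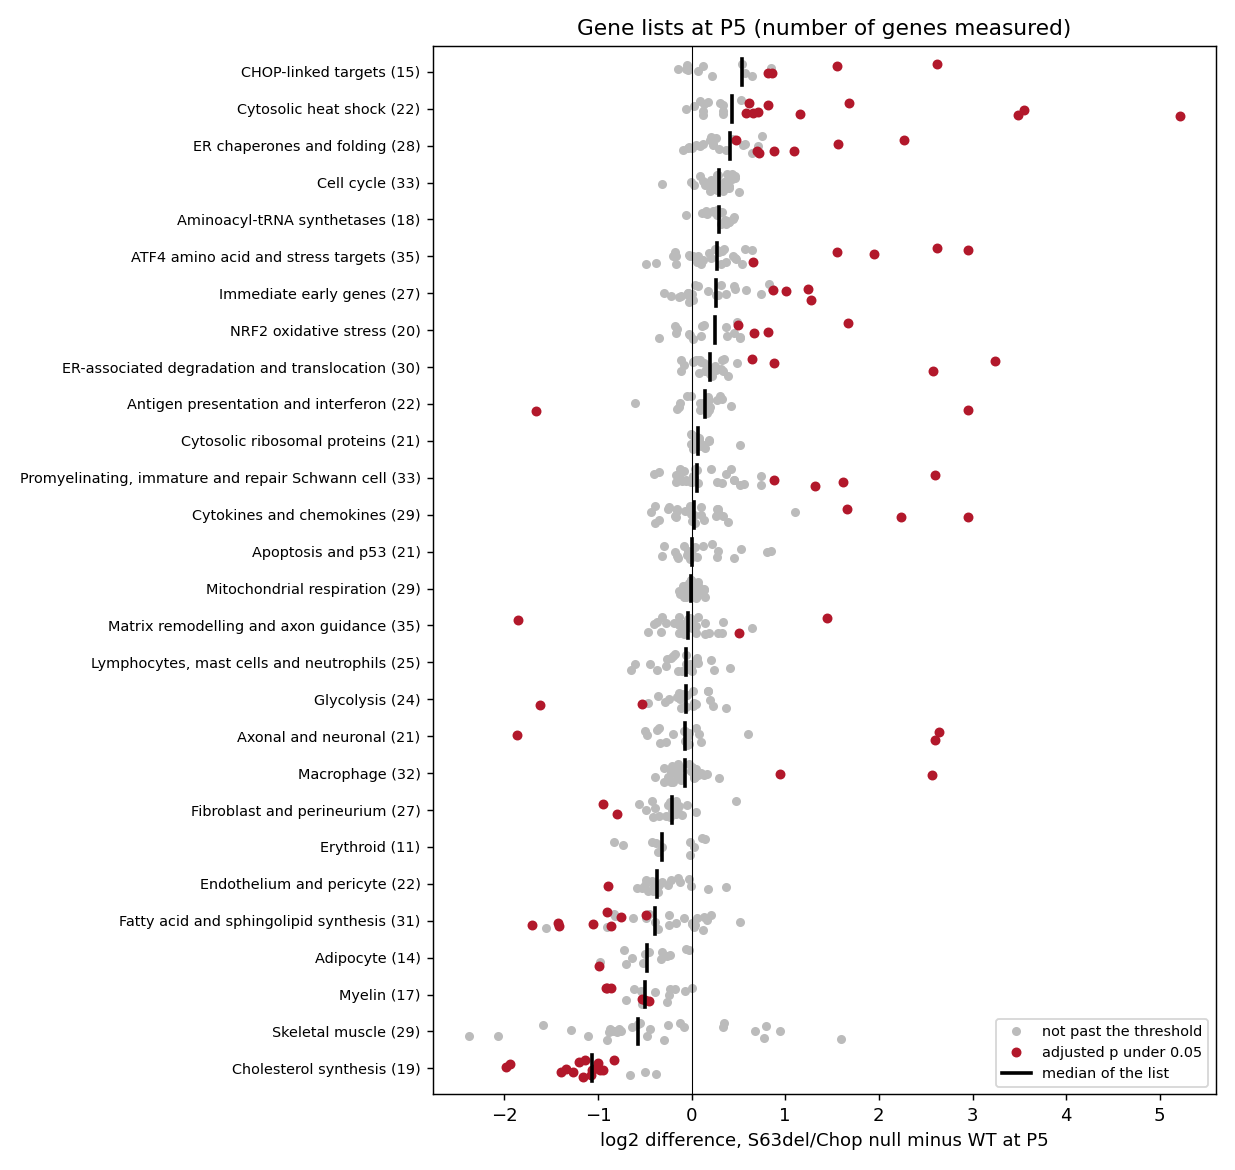
Log2 difference of S63del/Chop null from WT at P5 for each gene (points) of 28 gene lists, red where the adjusted p is under 0.05, with the list's median (bar) and the number of genes measured in brackets. Cholesterol synthesis lies lowest with a median of -1.07, and the largest single difference is that of Hspa1a at 5.22.

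The stage of the Schwann cells was read from genes of the promyelinating, immature and repair cell. Of 33 such genes 4 rose, against 0.904% of all genes, none fell and 22 lay above 0, with a median of 0.06. Uchl1, a ubiquitin hydrolase of neurons and injured Schwann cells, read 10.57 and 10.17 in S63del/Chop null and 7.83 and 7.70 in WT nerves, a rise of 2.60 ± 0.30. Gdnf, a growth factor of denervated Schwann cells, read 5.98 and 5.26 in S63del/Chop null and 4.27 and 3.75 in WT nerves, a rise of 1.61 ± 0.24. WT lay lower in both genes, and the Gdnf replicates of both genotypes were far from each other. Btc, an EGF family ligand, rose by 1.32 ± 0.32 and Ngfr, the low-affinity neurotrophin receptor, by 0.88 ± 0.20. Both lost the call without single arrays: Btc without any of the 4 (1.23 to 1.41, adjusted p from 0.152 to 0.292), Ngfr without S63del/Chop null replicate 1 (0.68, adjusted p = 0.364), WT replicate 1 (0.89, adjusted p = 0.174) or WT replicate 2 (0.87, adjusted p = 0.187). The transcription factors of the stage before myelination did not pass: Sox2 was 0.74 ± 0.38 higher (adjusted p = 0.59), Pou3f1 0.27 ± 0.35 (adjusted p = 0.984), Id2 0.51 ± 0.24 (adjusted p = 0.509) and Jun 0.45 ± 0.20 (adjusted p = 0.471). None of 33 cell cycle genes passed in limma (4 at an unadjusted p under 0.05), and 31 lay above 0 with a median of 0.30. Of all 12393 genes 1205 had an unadjusted p under 0.05.

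Immediate early and injury genes rose in part. Of 27 immediate early genes 4 rose, against 0.904% of all genes, and none fell, with a median of 0.27. Among the 4 were Ccn1 (1.27 ± 0.16), Fos (1.25 ± 0.21) and Ier3 (1.01 ± 0.14). Fosl1 rose by 0.87 ± 0.21 and lost the call without S63del/Chop null replicate 1 (0.65, adjusted p = 0.451), WT replicate 1 (0.96, adjusted p = 0.149) or WT replicate 2 (0.79, adjusted p = 0.327). Tnfrsf12a, the receptor of the cytokine TWEAK, read 10.65 and 10.53 in S63del/Chop null and 8.68 and 8.46 in WT nerves, a rise of 2.02 ± 0.18 with tight replicates. Of 20 genes of the antioxidant factor NRF2 4 rose, against 0.904% of all genes, and none fell, with a median of 0.25. Srxn1, sulfiredoxin, led at 1.67 ± 0.27. In that list Txn1, thioredoxin, at 0.50 ± 0.12 and the oxidase Aox1 at 0.67 ± 0.13 lost the call without any 1 of the 4 arrays (Txn1 0.39 to 0.61, adjusted p from 0.0619 to 0.416, and Aox1 0.65 to 0.69, adjusted p from 0.0824 to 0.113). With the mean of its probe sets Txn1 was at 0.33 (adjusted p = 0.501). None of 21 apoptosis and p53 genes passed in limma (4 at an unadjusted p under 0.05, against 1205 of all 12393 genes), with a median of 0.00.

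The chemokine Cxcl10 read 9.86 and 9.64 in S63del/Chop null and 6.95 and 6.64 in WT nerves, a rise of 2.95 ± 0.61. The SE was large against the distance between the P5 replicates, since all 24 arrays give 1 spread per gene, and the call was lost without any 1 of the 4 arrays (2.80 to 3.11, adjusted p from 0.0814 to 0.138). Cxcl14 rose by 2.23 ± 0.30. Ccl8 rose by 1.66 ± 0.37 and lost the call without any 1 of the 4 arrays (1.53 to 1.80, adjusted p from 0.107 to 0.229). Of 29 cytokine and chemokine genes these 3 rose, against 0.904% of all genes, none fell, and the median was 0.03. Lgals3, galectin 3, read 11.24 and 10.91 in S63del/Chop null and 8.70 and 8.32 in WT nerves, a rise of 2.56 ± 0.27. In the macrophage list of 32 genes only Lgals3 and Gpnmb were called, both higher, against 0.904% of all genes. Gpnmb rose by 0.95 ± 0.21 and lost the call without any 1 of the 4 arrays (0.82 to 1.07, adjusted p from 0.0703 to 0.246). The list's median was -0.07, its mean level was 8.21 and 8.22 in S63del/Chop null and 8.23 and 8.12 in WT nerves, and the macrophage markers Cd68 and Mrc1 differed by -0.30 ± 0.16 and -0.25 ± 0.12 without passing. H2-DMa, an MHC class II peptide loader, fell by 1.66 ± 0.19. Cxcl10 and H2-DMa were the 2 of 22 antigen presentation and interferon genes that passed, against 2.07% of all genes, and the median was 0.14.

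Other large falls were in genes of varied function. Slc6a15, an amino acid transporter, read 5.64 and 5.57 in S63del/Chop null and 7.65 and 7.54 in WT nerves, a difference of -1.99 ± 0.26. Chdh, choline dehydrogenase, read 5.66 and 5.35 in S63del/Chop null and 7.44 and 7.41 in WT nerves, a difference of -1.92 ± 0.15. Sema5a, an axon guidance semaphorin, read 6.85 and 6.78 in S63del/Chop null and 8.68 and 8.66 in WT nerves, a difference of -1.86 ± 0.17. All these arrays were low in S63del/Chop null and close together within a genotype. Chst2, a sulfotransferase of glycans, fell by 1.82 ± 0.17, Serpinb6b, a protease inhibitor, by 1.90 ± 0.18, Scn3b, a sodium channel subunit, by 1.60 ± 0.20, and Esrp1, a splicing regulator of epithelial cells, by 1.56 ± 0.16. Vit, Pdzph1 and Nsg2 fell by 1.70 ± 0.21, 1.95 ± 0.28 and 1.87 ± 0.23. The glycolytic enzyme Aldoc fell by 1.62 ± 0.39, but by 0.93 with the mean of its probe sets (adjusted p = 0.0524), and it lost the call without any 1 of the 4 arrays (-1.79 to -1.44, adjusted p from 0.131 to 0.332). In the glycolysis list Aldoc and Ndrg1 were the 2 of 24 that fell, against 1.17% of all genes. None rose, and the median was -0.06. Ndrg1 is a hypoxia-induced gene that is also in the myelin list. Ndrg1 fell by 0.53 ± 0.11 and lost the call without S63del/Chop null replicate 2 (-0.44, adjusted p = 0.194), WT replicate 1 (-0.49, adjusted p = 0.144) or WT replicate 2 (-0.57, adjusted p = 0.067), and with the mean of its probe sets (adjusted p = 0.136).

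Tubb3, a neuronal tubulin, read 7.47 and 7.46 in S63del/Chop null and 5.10 and 4.55 in WT nerves, a rise of 2.64 ± 0.21. Both S63del/Chop null arrays lay well above both WT arrays. In the axonal and neuronal list of 21 genes Tubb3 and Uchl1 rose and Nsg2 fell, and the median was -0.07. Of all genes 0.904% were called higher at P5 and 1.17% lower. Of 35 genes of matrix remodelling and axon guidance 2 rose (0.904% of all genes did), 1 fell (Sema5a, against 1.17%) and the median was -0.04. The metalloproteinase inhibitors Timp1 and Timp3 were the rises, at 1.45 ± 0.32 and 0.51 ± 0.11. Both lost the call without any 1 of the 4 arrays, Timp1 at 1.24 to 1.66 (adjusted p from 0.0675 to 0.257) and Timp3 at 0.43 to 0.59 (adjusted p from 0.0675 to 0.289), and Timp3 also with the mean of its probe sets (0.60, adjusted p = 0.119).

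Markers of other cells in the nerve were read on the same arrays. No skeletal muscle gene passed in limma among 29 (1 at an unadjusted p under 0.05), and the mean level of the list was 8.40 and 7.26 in S63del/Chop null and 7.56 and 9.01 in WT nerves, so that the groups overlapped and replicates differed more than genotypes. The adipocyte list had a mean level of 7.11 and 7.30 in S63del/Chop null and 7.52 and 7.85 in WT nerves, with all 14 genes below 0 and a median of -0.48. In this list Car3, a carbonic anhydrase of fat and muscle, fell by 0.99 ± 0.23 and lost the call with the 8 P5 arrays alone (adjusted p = 0.075), without S63del/Chop null replicate 1 (-0.83, adjusted p = 0.318), S63del/Chop null replicate 2 (-1.16, adjusted p = 0.0674) or WT replicate 2 (-0.67, adjusted p = 0.435), while Adipoq differed by -0.98 ± 0.32 (adjusted p = 0.17). The endothelium and pericyte list stood at 8.22 and 8.38 in S63del/Chop null and 8.59 and 8.62 in WT nerves, with Vwf, von Willebrand factor, the only called member of 22 (-0.90 ± 0.17). Vwf lost the call without any 1 of the 4 arrays (-0.94 to -0.85, adjusted p from 0.0539 to 0.0979). The fibroblast and perineurium list stood at 10.65 and 10.58 in S63del/Chop null and 10.89 and 10.85 in WT nerves. In it 2 of 27 fell, against 1.17% of all genes: the proteoglycan Ogn at -0.79 ± 0.13 and Itgbl1 at -0.94 ± 0.18. Itgbl1 was -0.86 without S63del/Chop null replicate 2 (adjusted p = 0.122) and -0.81 without WT replicate 1 (adjusted p = 0.145). No gene passed in limma among 11 erythroid genes (median -0.32), 25 of lymphocytes, mast cells and neutrophils (-0.06), 21 of ribosomal proteins (0.07), 29 of mitochondrial respiration (-0.01) and 4 sex-linked genes (0.05). At an unadjusted p under 0.05 the lymphocyte, mast cell and neutrophil list had 2 genes and the other 4 lists 0, against 1205 of all 12393 genes. The part of these differences in the other results was not tested. Xist read 9.46 and 9.78 in S63del/Chop null and 10.31 and 8.37 in WT nerves, so that the WT replicates differed from each other more than from the mutant arrays.

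The same arrays of WT serve S63del against WT and Chop null against WT at P5, whose values are set beside those above. S63del against WT called 298 genes (2.4%), 142 higher (1.15%) and 156 lower (1.26%), and Chop null against WT called none by limma (0%), with 114 genes at an unadjusted p under 0.05. Without Chop null replicate 1 that comparison called 1 gene. Hspa1a differed from WT by 5.22 ± 0.30 in S63del/Chop null, 5.21 ± 0.30 in S63del and -0.10 ± 0.30 in Chop null nerves. Lss differed by -1.98 ± 0.28 in S63del/Chop null, -2.02 ± 0.28 in S63del and -0.06 ± 0.28 in Chop null nerves. For the lists, the medians of cholesterol synthesis were -1.07 in S63del/Chop null, -1.19 in S63del and -0.04 in Chop null nerves, and those of heat shock genes 0.43 in S63del/Chop null, 0.48 in S63del and 0.00 in Chop null nerves. Of the 145 falls 130 lay below 0 in Chop null against WT (median -0.09, against -0.02 over all genes). Of the 112 rises 57 lay above 0 there and 55 below. In S63del/Chop null against Chop null, which uses no WT array, 97 of the 112 rises were called higher and 98 of the 145 falls lower. Of all genes 0.904% were called higher there and 0.88% lower. That comparison shares its S63del/Chop null arrays with the main one, so that its counts are no second support. The part that shared arrays, of WT or of S63del/Chop null, have in these values was not tested.

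**Figure D3:**
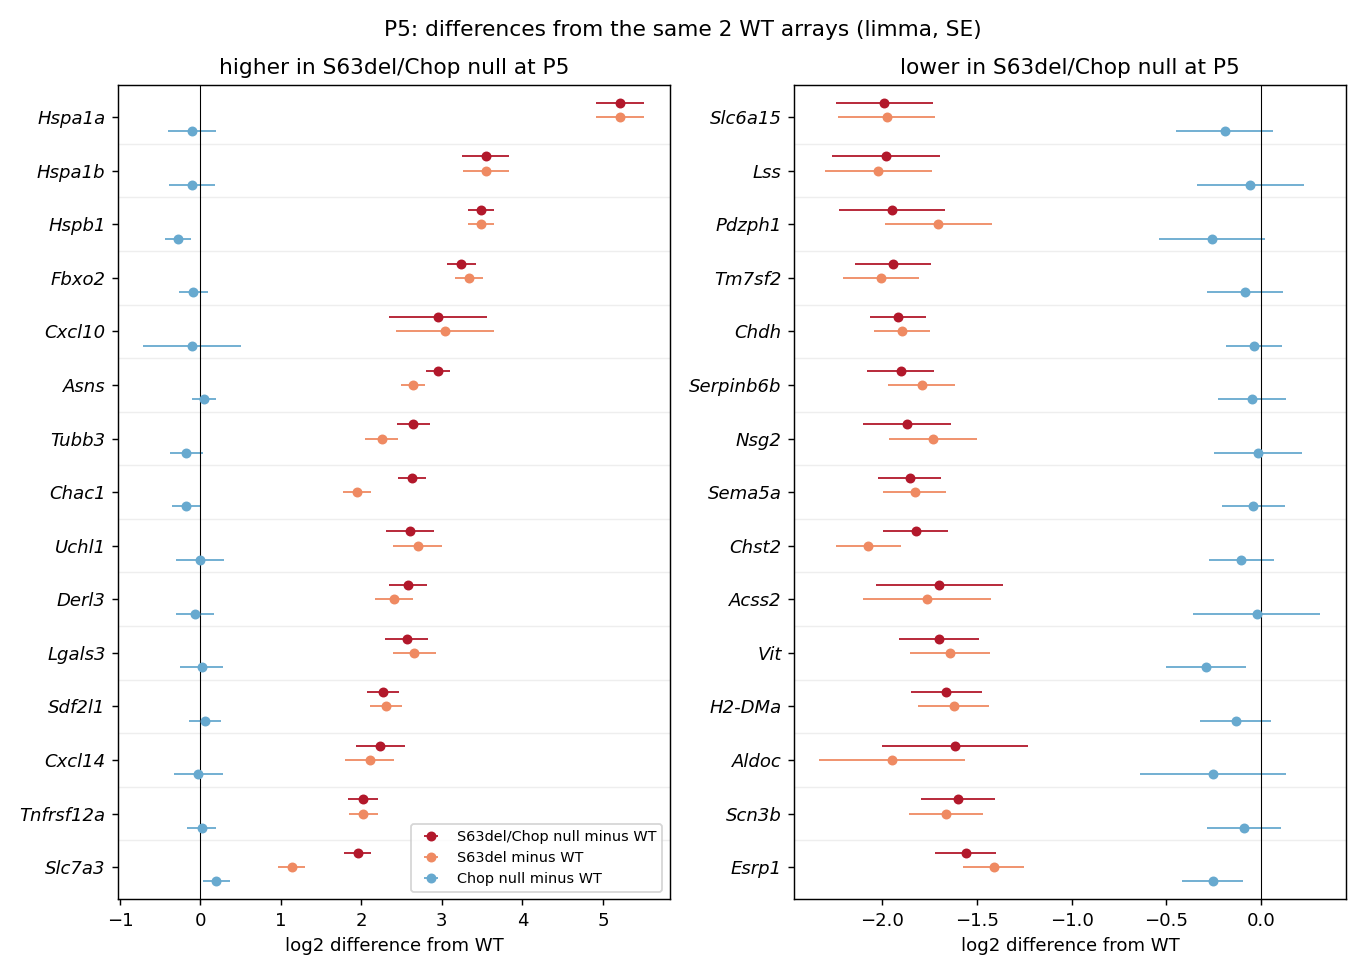
Log2 difference from the same 2 WT arrays at P5 (points, with SE from limma) of the 15 largest rises and 15 largest falls of S63del/Chop null, shown for S63del/Chop null, S63del and Chop null. Hspa1a stands at 5.22 in S63del/Chop null, 5.21 in S63del and -0.10 in Chop null.

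S63del/Chop null was also tested against S63del, which shares its arrays with the main comparison. Here 2 of 12393 genes passed (0.0161%), both lower in S63del/Chop null: Ddit3 at -2.68 ± 0.19 and Car6, a secreted carbonic anhydrase, at -2.24 ± 0.27. Car6 read 3.44 and 3.58 in S63del/Chop null, 5.90 and 5.61 in S63del nerves and 3.49 and 3.51 in Chop null nerves, with the WT arrays close to those of Chop null, so that S63del alone was high. An unadjusted p under 0.05 was reached by 110 genes. The count was 4 without S63del/Chop null replicate 1 and 1 without S63del replicate 1. Neither gene is among the 257, none of which passed here in limma, with a smallest adjusted p of 0.735 and 6 (2.33%) at an unadjusted p under 0.05, against 0.888% of all genes. The median size of their difference between S63del/Chop null and S63del was 0.07, with a median SE of 0.16, so that small differences could not be seen with 2 arrays a group.

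The 4 largest of these differences, over 0.5 in size, were 2 higher and 2 lower. Slc7a3 read 6.24 and 6.28 in S63del/Chop null and 5.39 and 5.49 in S63del nerves, a difference of 0.82 ± 0.17, and Chac1 7.68 and 7.22 in S63del/Chop null and 6.80 and 6.74 in S63del nerves, a difference of 0.68 ± 0.17. In both of these ATF4 list genes S63del/Chop null lay above S63del on every array, yet neither passed over all genes. Car3 and Ccl8 differed by -0.78 ± 0.23 and -0.55 ± 0.37. Asns differed by 0.31 ± 0.15. Against Chop null, where CHOP is missing on both sides, S63del/Chop null had 221 called genes (1.78%), 112 higher and 109 lower, and Asns stood at 2.90 ± 0.15 and Lss at -1.93 ± 0.28. The last count was 91 or 103 without S63del/Chop null replicate 1 or 2 and 78 or 99 without Chop null replicate 1 or 2.

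The comparison was repeated on other arrays at the later ages. At P28 545 genes (4.4%) were called, 334 higher and 211 lower, and at 4 months 1, Ddit3 itself (0.00807%), with 333 genes at an unadjusted p under 0.05. These counts leaned on single arrays. The P28 count was 288 or 159 without S63del/Chop null replicate 1 or 2 and 119 without WT replicate 1. The 4-month count was 3 without S63del/Chop null replicate 2 and 89 without WT replicate 2. Of the 112 genes higher at P5 53 were called higher at P28 (47.3% of them, and 15.9% of those higher at P28), where 2.7% of all genes were, none was called lower, and the median difference was 0.53. Of the 145 lower at P5 30 were called lower at P28 (20.7% of them, and 14.2% of those lower at P28), where 1.7% of all genes were, and the median was -0.31. At 4 months none of the 257 was called in limma, with medians of 0.06 and -0.08, and 7 (2.72%) had an unadjusted p under 0.05, as had 2.69% of all genes.

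Genes lower at P5 and called higher at P28 numbered 3, Emid1, Efemp1 and Serpina1b. Emid1, a secreted protein with an EMI domain, read 10.89 and 10.72 in S63del/Chop null and 11.64 and 11.47 in WT nerves at P5. At P28 it read 10.87 and 10.89 in S63del/Chop null and 10.12 and 10.02 in WT nerves. S63del/Chop null levels were close at both ages, while WT was higher at P5 than at P28. Emid1 lost its P5 call without any 1 of the 4 arrays (-0.83 to -0.67, adjusted p from 0.13 to 0.338). The matrix gene Efemp1 and the protease inhibitor Serpina1b, outside the rule for named genes, differed by -0.73 ± 0.16 and -0.71 ± 0.17 at P5 and by 0.69 ± 0.16 and 0.81 ± 0.17 at P28. Serpina1b belongs to a family of near-identical genes, so that its probe set may read several of them.

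The difference between ages was tested itself. P5 minus P28 called 56 genes (0.452%), 29 higher and 27 lower. P5 minus 4 months called 54 (0.436%), 25 higher and 29 lower. Both use the P5 arrays of the main comparison, so that the values below describe the same genes once more and are no second support for them. Without 1 array the first count lay between 20 and 45 and the second between 20 and 128.

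Hspb1 read 12.17 and 12.49 in S63del/Chop null and 11.05 and 11.21 in WT nerves at P28, and 11.90 and 11.81 in S63del/Chop null and 12.06 and 11.82 in WT nerves at 4 months. In S63del/Chop null nerves the gene lay between 11.81 and 12.88 over the 3 ages, and in WT nerves it was lowest at P5. The P5 difference was larger than that at P28 by 2.29 ± 0.23 and than that at 4 months by 3.57 ± 0.23. Asns read 8.72 and 8.74 in S63del/Chop null and 7.64 and 7.82 in WT nerves at P28, with a P5 difference larger by 1.95 ± 0.21. Fbxo2 read 6.23 and 6.06 in S63del/Chop null and 5.08 and 5.50 in WT nerves at P28, with a P5 difference larger by 2.39 ± 0.25. Tubb3, Chac1, Slc7a3, Derl3, Hspa1a and Hspa1b were also called higher in P5 minus P28, by between 1.62 and 2.08.

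Falls that were larger at P5 than at P28 included Slc6a15. It read 8.001 and 7.92 in S63del/Chop null and 7.95 and 8.19 in WT nerves at P28, and 9.67 and 9.51 in S63del/Chop null and 9.62 and 9.73 in WT nerves at 4 months. The genotypes overlapped at both later ages, and both were higher than at P5. The P5 difference was lower than the P28 one by 1.88 ± 0.36. Serpinb6b overlapped at P28 too, at 8.30 and 8.41 in S63del/Chop null and 8.14 and 8.62 in WT nerves. Chdh read 7.83 and 7.99 in S63del/Chop null and 8.23 and 8.19 in WT nerves at P28, Chst2 8.70 and 9.01 in S63del/Chop null and 9.09 and 9.14 in WT nerves, and Sema5a 9.07 and 9.42 in S63del/Chop null and 9.70 and 9.91 in WT nerves. In these 3 genes S63del/Chop null stayed below WT by a smaller distance than at P5.

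Other genes were called at both P5 and P28. Uchl1 differed by 2.60 ± 0.30 at P5 and 2.38 ± 0.30 at P28, Creld2 by 1.56 ± 0.22 and 1.33 ± 0.22, and Cxcl14 by 2.23 ± 0.30 and 2.79 ± 0.30. None of these passed in P5 minus P28 (adjusted p = 0.917 for Uchl1, 0.88 for Creld2 and 0.763 for Cxcl14), which does not show that they are equal. Lss was at -1.42 ± 0.28 at P28. The cholesterol list had 4 of 19 lower there, against 1.7% of all genes. Its median was -0.56 at P28 and -0.14 at 4 months.

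Of the 33 promyelinating, immature and repair genes 12 were called higher at P28 and none lower, with a median of 0.18, where 2.7% of all genes were called higher. Sox2, Pou3f1 and Id2 were among the 12. Sox2 read 7.71 and 8.27 in S63del/Chop null and 5.02 and 5.58 in WT nerves at P28 and was 2.68 ± 0.38 higher. Pou3f1 and Id2 were 2.14 ± 0.35 and 1.54 ± 0.24 higher at P28. None of Sox2, Pou3f1 and Id2 was called at P5, but the difference between the ages did not pass (adjusted p = 0.157, 0.138 and 0.299).

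**Figure D4:**
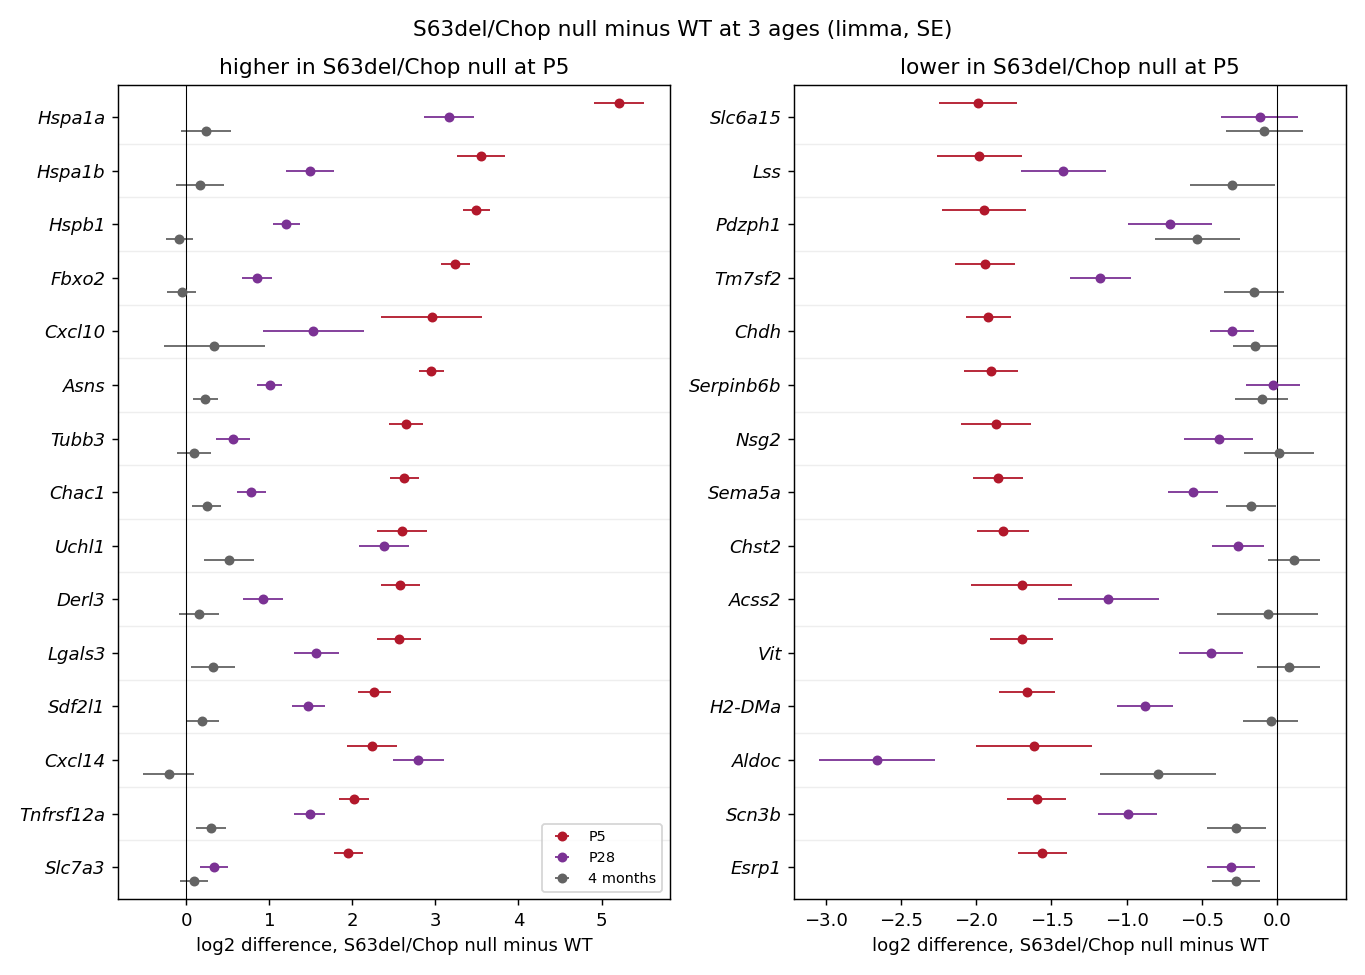
Log2 difference of S63del/Chop null from WT (points, with SE from limma) at P5, P28 and 4 months for the 15 largest rises and 15 largest falls at P5. Hspa1a stands at 5.22 at P5, 3.16 at P28 and 0.23 at 4 months, and Slc6a15 at -1.99, -0.11 and -0.08.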

How the data were processed

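RNA of sciatic nerve, taken without its perineurial sheath, was hybridised to Affymetrix arrays, 1 array a sample, 24 in all. The deposited values were log2 expression per probe set, read as log2 from the values, since the sources used here name no normalization or software. Of 22690 probe sets 64 were controls, 20380 had 1 gene symbol in GEO's platform annotation, 691 several and 1555 none, and 20351 gene IDs matched the GRCm38.p6 gene table. A gene was read from its probe set with the highest mean over all arrays, giving 12393 genes, of which 4956 had more than 1 probe set. Of 110 called genes with several probe sets 102 had all on the same side of 0.

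A linear model with 12 group means over the 24 arrays was fitted with limma 3.58.1 (R 4.3.3, statmod 1.5.0), with empirical Bayes and Benjamini-Hochberg adjustment over all genes, threshold 0.05. Alternatives changed the normalization, the probe set rule, a filter at percentile 40 of the mean level, the arrays in the fit, weights, trend, a replicate block, and each array in turn.

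Named genes were the 15 largest rises and falls whose arrays did not overlap, up to 4 genes of each of 29 lists with the smallest p, fixed genes, and the 6 largest each way in the age differences and against S63del among genes also called at P5. Genes, lists and tests were chosen with earlier results of these data known. The lists hold 748 symbols, of which 666 were measured. Promoters came from RefSeq.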

Additional observations from a re-analysis of the deposited data

Results flagged for a closer look

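The difference between S63del/Chop null and WT was itself compared between ages, and the following named genes passed that test in limma. In P5 minus P28 the P5 difference was higher for the cytosolic chaperones Hspa1a (2.06), Hspa1b (2.05) and Hspb1 (2.29), the degradation genes Fbxo2 (2.39) and Derl3 (1.65), the amino acid genes Asns (1.95), Chac1 (1.84) and Slc7a3 (1.62), and Tubb3 (2.08). It was lower for Slc6a15 (-1.88), Serpinb6b (-1.88), Frzb (-1.68), a secreted Wnt antagonist, Chdh (-1.62), Chst2 (-1.56), Emid1 (-1.56), Sema5a (-1.30) and Esrp1 (-1.26). Frzb fell at P5 by 1.09 ± 0.23, and by 0.71 without WT replicate 2 (adjusted p = 0.348), losing the call also without either S63del/Chop null replicate (adjusted p = 0.188 and 0.0806).

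The ribosomal protein gene Rpl27a passed in P5 minus P28 (3.34). It read 7.34 and 7.99 in S63del/Chop null and 6.76 and 7.53 in WT nerves at P5, against 6.56 and 6.16 in S63del/Chop null and 9.21 and 9.15 in WT nerves at P28. The genotypes overlapped at P5 and lay far apart at P28, with S63del/Chop null lower. Its probe set averaged 7.49 over the 24 arrays and a dimmer one 3.62. The ribosomal protein list averaged 12.20 and 12.20 on the WT arrays at P5. How well this probe set reads the gene was not tested.

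In P5 minus 4 months the P5 difference was higher for Hspa1a (4.98), Hspb1 (3.57), Hspa1b (3.38), Fbxo2 (3.30), Asns (2.72), Tubb3 (2.55), Cxcl14 (2.45), Derl3 (2.42), Chac1 (2.38), Lgals3 (2.24), Uchl1 (2.09), Sdf2l1 (2.07), Slc7a3 (1.86), Gdnf (1.75), Tnfrsf12a (1.72), Creld2 (1.67), Atf3 (1.38), Ccn1 (1.14), Pdia4 (1.08) and Dnajb11 (0.92). It was lower for Slc6a15 (-1.90), Chst2 (-1.94), Nsg2 (-1.88), Serpinb6b (-1.80), Tm7sf2 (-1.79), Vit (-1.78), Chdh (-1.77), Sema5a (-1.68), H2-DMa (-1.62), Scd1 (-1.47), Nsdhl (-1.35), Scn3b (-1.33), Esrp1 (-1.29), Elovl6 (-1.23), Dhcr7 (-0.90), Ugt8a (-0.88) and Hmgcs1 (-0.87).

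Among the 2246 probe sets with several gene symbols or none, which no comparison above uses, 23 passed in S63del/Chop null against WT at P5, 6 higher and 17 lower. They are left unnamed.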

How the results depend on the processing

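The P5 calls of S63del/Chop null against WT kept their direction for all 257 genes, of which the filter on dim probe sets left 236 to test. Only quantile normalization, median centring and the mean of a gene's probe sets could have changed a direction. The other alternatives use the same values of arrays that did not overlap, so that their direction was fixed. The count stayed within 1.5 times of 257 with quantile normalization (275), median centring (250), the mean of a gene's probe sets (266), all probe sets (349), dim probe sets left out (304), an intensity trend with robust fit (300) and a replicate block (208). It moved to 742 with the 8 P5 arrays alone, 409 with the 4 compared arrays, 795 with array weights, 509 without Chop null P28 array 2 and WT 4-month array 1, and 473 without the P28 arrays. Of the 257, 106 to 122 passed without 1 array. S63del against WT moved from 298 to 901, 580, 1033, 572 and 564 under the same 5 settings, and S63del/Chop null against Chop null from 221 to 586, 409, 935, 441 and 399. S63del/Chop null against S63del had 6 calls with array weights and 1 with dim probe sets left out. Chop null against WT had 3 with array weights, 1 with the trend and 1 without the 2 arrays named. P28 had 61 with the P28 arrays alone, 176 with the 4 compared, 361 with array weights and 1815 without the 2 arrays named. The 4-month count was 0 with that age's arrays and 18 with 4. P5 minus P28 gave 85 with all probe sets, 98 with array weights, 97 with the compared arrays, 85 with the trend and 216 without the 2 arrays, and P5 minus 4 months 23 with the compared arrays. Leaving out 1 array gave 109 to 128 calls against WT at P5, 119 to 149 for S63del, 0 to 1 for Chop null, 78 to 103 against Chop null, 1 to 4 against S63del, 119 to 657 at P28, 1 to 89 at 4 months, 20 to 45 in P5 minus P28 and 20 to 128 in P5 minus 4 months. In these fits the lone array of a group is assumed to vary like the other groups. The causes of these moves were not tested.

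None of the 70 named genes called changed direction, which only another normalization or the mean of probe sets could have brought about. Of them 11 lost the call under an alternative other than leaving out 1 P5 array, and more lost it without 1 P5 array. With the replicate block Aldoc (adjusted p = 0.0847), Btc (0.0901), Ccl8 (0.0524), Ngfr (0.0612) and Txn1 (0.0775) lost it, and Aldoc (0.0628) and Ccl8 (0.051) without the P28 arrays. Fosl1 lost it with all probe sets (0.0529), Frzb (0.0696) with the mean of probe sets and Txn1 (0.0654) with the 4 compared arrays. Genes that did not pass and turned sign without 1 P5 array were Egr2 (-0.011 to 0.012), Eif2s3y (-0.57 to 0.32), Uty (-0.62 to 0.52), Kdm5d (-0.33 to 0.64), Xist (-0.69 to 1.25), Ppp1r15a (-0.0499 to 0.18) and Ero1a (-0.094 to 0.017). With the mean of probe sets Ero1a (0.085), Sdhd (0.0200) and Xbp1 (0.047) did. Replicate numbers are names only: deviations of same-numbered S63del/Chop null and WT arrays at P5 correlated at -0.253, and over all pairs of groups at -0.477 to 0.349. The replicate block gave 244 calls for S63del against WT, 180 against Chop null, 2 against S63del, 0 for Chop null, 392 at P28, 1 at 4 months, 55 in P5 minus P28 and 40 in P5 minus 4 months.

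With 2 arrays a group, small changes can be missed, and signal over background could not be read from these values.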

Other observations

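Subunits of the proteasome, the protease that degrades ubiquitin-tagged proteins, were looked at after the values had been seen and are no list of the report. Of 38 genes with Psma, Psmb, Psmc or Psmd symbols 10 rose in S63del/Chop null against WT at P5, none fell and 36 lay above 0, with a median of 0.39 against -0.01 over all genes. Of all genes 0.904% were called higher at P5. Psmb3, a core subunit, read 11.54 and 11.67 in S63del/Chop null and 10.87 and 10.67 in WT nerves, a rise of 0.83 ± 0.15 with no overlap of the arrays. The subunits of the immunoproteasome Psmb8, Psmb9 and Psmb10 were at -0.16, 0.09 and 0.04, and none of them passed. The median of the 38 genes was 0.41 in S63del and -0.04 in Chop null against the same WT arrays. On other arrays it was 0.32 at P28, where 4 rose and 2.7% of all genes were called higher, and 0.01 at 4 months.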
